A study of Danio rerio with 3 samples.

Results

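Wells that held a transcript of dll4 were compared with wells that held none, in single-cell libraries of endothelial cells from the zebrafish anal fin. The wells were chosen by their measured UMIs. A well was counted as a dll4 well when it was on the authors' list of analysed wells, had at least 500 unique molecular identifiers (UMIs, each standing for 1 captured transcript) and showed at least 1 UMI of dll4. By this rule 187 wells were dll4 wells, 79 on plate 1, 80 on plate 2 and 28 on plate 3. They were drawn from 672 wells that met the other conditions, from 1036 listed wells and from 1152 wells in all, and the remaining 485 wells had dll4 at 0. The cells carried a dsRed reporter driven by fli1a, an ETS factor gene active in blood and lymphatic endothelium, and were sorted from digested fins of immature fish at stage II-III, 80 fins for each plate. The sources used here state neither the strain nor the number of fish nor any other allele. All 3 plates belong to a single group without treatment, so each comparison below is between classes of wells on the same plates. The plates count as replicates, but nothing in the labels says that they came from separate fish, so the p-values measure a spread that may be technical.

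The gene dll4 encodes Delta-like 4, a membrane-bound ligand of Notch receptors that marks arterial endothelium and the leading cells of sprouts. It activates Notch on the neighbouring cell, where the receptor is cut and its freed intracellular part, bound to Rbpj and Mastermind, switches on repressors of the hey and her families and the feedback gene nrarpa. Ephrin-B2, the chemokine receptor Cxcr4 and SoxF transcription factors are also commonly used to mark arteries, whereas nr2f2 marks veins and prox1a marks lymphatic endothelium. malat1 is a long RNA that stays in the nucleus, and its share of a well's UMIs differed widely between these wells. Each gene was therefore followed along dll4 among wells of like malat1 share and along malat1 among wells without dll4.

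A dll4 UMI was found in 27.3% of the wells on plate 1, with an exact 95% binomial interval of 22.3 to 32.9%. On plate 2 the share was 29.5% (24.2 to 35.3%) and on plate 3 it was 25.0% (17.3 to 34.1%). These intervals cover counting error only. Most of the dll4 wells rested on a single molecule: 118 wells had 1 UMI, 40 had 2 and 29 had 3 to 7, and a well at 0 can still be a cell that expresses the gene. When every well was thinned to 500 UMIs the shares were 13.5, 13.7 and 14.3%, so the fraction of wells that count as dll4 wells depends on depth. Among listed wells just under the depth limit, with 400 to 499 UMIs, 9 of 68 had dll4, and among those with 500 to 599 UMIs it was 4 of 61.

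dll4 wells were found both among wells led by blood endothelial markers and among wells led by lymphatic markers. Where the blood endothelial list had more UMIs than the lymphatic list, 111 of 377 wells had dll4 (29.4%), and where the lymphatic list had more it was 72 of 256 (28.1%). The difference was 3.85 and 2.93 percentage points on plates 1 and 2 and -9.92 points on plate 3, a mean of -1.05 ± 7.70 (SD, n = 3 plates), so its sign was not the same on every plate. Of the 11 wells with 10 or more neutrophil UMIs, 0 had dll4, with an exact 95% interval of 0 to 28.5% and a median depth of 1442 UMIs. In the other 661 wells the share was 28.3% at a median depth of 1259 UMIs, within that interval.

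The dll4 wells were deeper and richer in malat1 than the wells without dll4. Their median depth was 1558, 1732 and 1084 UMIs on plates 1 to 3, against 1354, 1201 and 775.5 UMIs. A deeper well has more chance of a dll4 UMI, so the rule itself favours deeper wells. The median share of malat1 was 0.614, 0.619 and 1.04% of UMIs in dll4 wells and 0.276, 0.392 and 0.852% in the others. The median share of ribosomal protein transcripts was 14.2, 14.5 and 16.0% in dll4 wells and 17.6, 15.9 and 15.9% in the others, lower in dll4 wells on plates 1 and 2 only. Plate 3 was the shallowest and held the fewest dll4 wells. The same 384 well coordinates and cell barcodes were used on all plates, and 40.6% of dll4 wells had dll4 at the same coordinate of another plate, against 36.5% of wells without dll4.

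**Figure D1:**
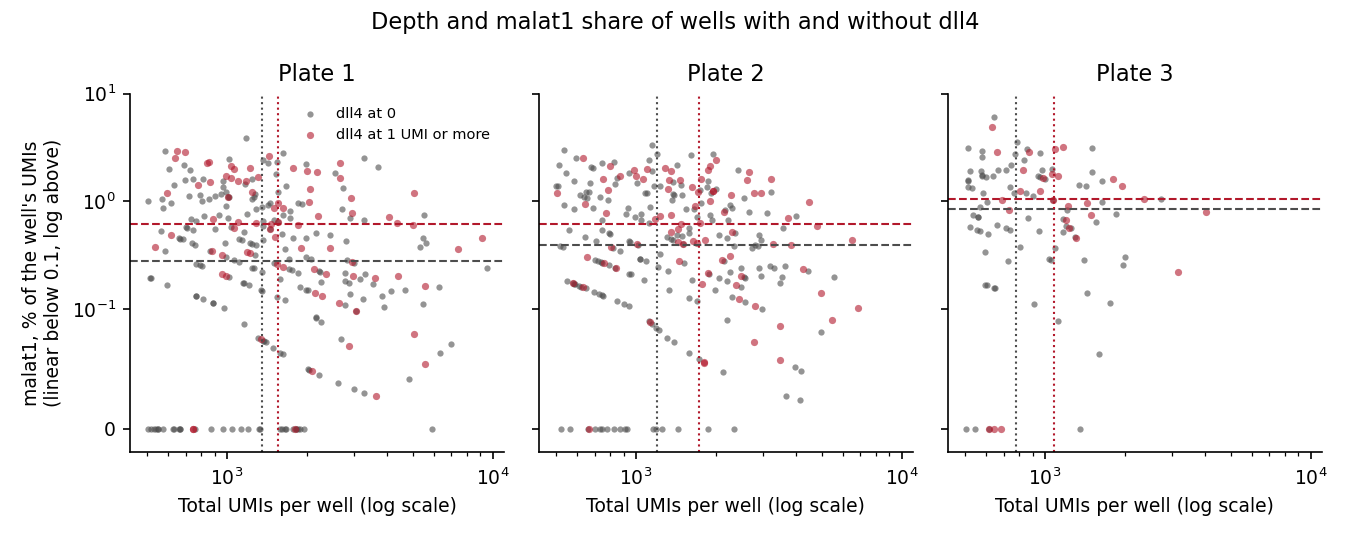
Each point is a well of at least 500 UMIs, with its total UMIs on the horizontal axis (log scale) and the share of malat1 in percent on the vertical axis (linear below 0.1, log above); red wells have dll4 and grey wells do not. Dashed and dotted lines mark the medians of each class, and on every plate both medians of the dll4 wells lie above those of the wells without.

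To set dll4 apart from depth and malat1, each dll4 well was paired with a well of the same plate without dll4 that had nearly the same total UMIs and malat1 share. This left 182 pairs, 78 on plates 1 and 2 and 26 on plate 3. After pairing, malat1 stood at 6923, 7583 and 13950 CPM (UMIs per 1000000 UMIs of the summed wells) in dll4 wells and at 6454, 7368 and 13544 CPM in their partners. The median number of genes detected per well was 741, 774.5 and 582.5 in the paired dll4 wells of plates 1 to 3. In their partners it was 709, 740 and 541. It thus stayed higher in dll4 wells on each plate, and its part in the calls was not tested. Other genes were then tested on sums per plate with edgeR's quasi-likelihood test, plate as a block and Benjamini-Hochberg adjustment over 1995 genes. dll4 and malat1 were left out of the sums, and the CPM of other genes are of the remaining UMIs. A sum cannot tell more wells with a gene from more UMIs in each such well, so the number of wells with a UMI is given for the main genes.

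In these matched wells 14 genes were higher with dll4 at an adjusted p under 0.05, which is 0.702% of the genes tested, and 7 were lower (0.351%). Genes of arterial and sprouting endothelium were among those that rose: the Notch receptor notch1b, the Notch ligand jag2b, the chemokine receptor cxcr4a, the adhesion molecule mcamb and the secreted proteoglycan esm1. Their fold changes lay between 2.05 (mcamb) and 3.63 (notch1b). A list of arterial genes drawn up with earlier results of these data known has 31 rows in the tables, of which 28 had a UMI and 11 passed the filter on low counts. Of those 11, 3 rose and 0 fell, 9 had a positive and 2 a negative difference, and their median log2 difference was 0.87 against -0.03 over all genes tested. At an unadjusted p under 0.05, 192 genes differed in either direction.

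The calls depended on the test and on the plates. DESeq2 on the same sums called 0 genes higher and 2 lower (41 genes at an unadjusted p under 0.05), and edgeR without plate 2 called 0 genes (50 at an unadjusted p under 0.05). It called 3 higher and 2 lower without plate 1, and 23 higher and 15 lower without plate 3. The 21 calls by edgeR became 6 without the plate block, 4 with at least 2 dll4 UMIs required, 3 in wells thinned to 500 UMIs and 1 without wells holding other cell type markers, where 9 pairs were left. They became 2 when ribosomal protein share was matched as well. That share was a median of 14, 14.4 and 16.0% in the matched dll4 wells and 16.0, 15.6 and 15.7% in their partners, and its part in the calls was not otherwise tested.

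A gene entered the test when it reached 69.6 CPM in at least 3 of the 6 sums. Of the 21 called genes, 9 reached this on all plates in both classes and 6 on all plates in the dll4 wells alone, namely notch1b, cxcr4a, cyp26b1, pcdh19, igf1ra and si:ch211-285f17.1. These genes could enter only by their level in dll4 wells, so their number and the medians that include them add no support. With no filter on low counts, each of these 6 was again called by edgeR, with adjusted p of 0.0041, 0.0098, 0.00528, 0.00551, 0.0322 and 0.00107 in the order named.

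The receptor notch1b stood at 230, 258 and 355 CPM in dll4 wells of plates 1 to 3 and at 44.3, 100 and 36.5 in their matched partners. The lowest dll4 value lay above the highest partner value, so the classes did not overlap. The share of all tested genes without overlap is not given, so lack of overlap, here and below, only describes the values. The log2 fold change was 1.86 ± 0.37 (SE) and the adjusted p of edgeR's test was 0.00763, on 84 UMIs in dll4 wells and 22 in partners. A UMI of notch1b was seen in 49 dll4 wells and 17 partners. On plate 3 the comparison was between 10 UMIs and 1. Over 15 alternative settings the log2 fold change lay between 1.5 and 2.63, with the gene called in 8 of them and an adjusted p from 3.5e-04 to 0.81.

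The ligand jag2b, which like dll4 presents a signal to Notch on the neighbouring cell, stood at 422, 597 and 532 CPM in dll4 wells and 228, 222 and 146 in partners. These values did not overlap either. It rose by 1.17 ± 0.25 on the log2 scale (edgeR adjusted p 0.0101), with a UMI in 79 dll4 wells and 51 partners. Its level was 0.81 to 1.69 higher under 15 alternatives on the same scale and was called in 8 of them (adjusted p 2.9e-04 to 0.81).

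The receptor cxcr4a, which binds the chemokine Cxcl12 and is used in arterial and tip cell migration, stood at 307, 522 and 284 CPM with dll4 and at 108, 222 and 36.5 without. The log2 fold change was 1.38 ± 0.29 (edgeR adjusted p 0.00881), and the classes did not overlap. A UMI was present in 56 dll4 wells and 24 partners. The adhesion molecule mcamb, a co-receptor of vascular endothelial growth factor signalling, stood at 901, 1003 and 957 with dll4 and at 449, 494 and 292 without. It rose by 1.04 ± 0.19 (edgeR adjusted p 0.00345), again without overlap, with a UMI in 112 dll4 wells and 73 partners. When wells of 10 or more neutrophil UMIs were left out, the log2 fold changes were 1.79 for notch1b and 0.94 for mcamb (edgeR adjusted p 0.0224 each), and 1.1 for jag2b and 1.22 for cxcr4a (0.0515 and 0.0625). The last pair of calls was thus lost when those wells were left out and the rest were paired anew. The part of the new pairing in this was not tested. Over all alternatives the adjusted p ran to 0.81 for each of these 4 genes.

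**Figure D2:**
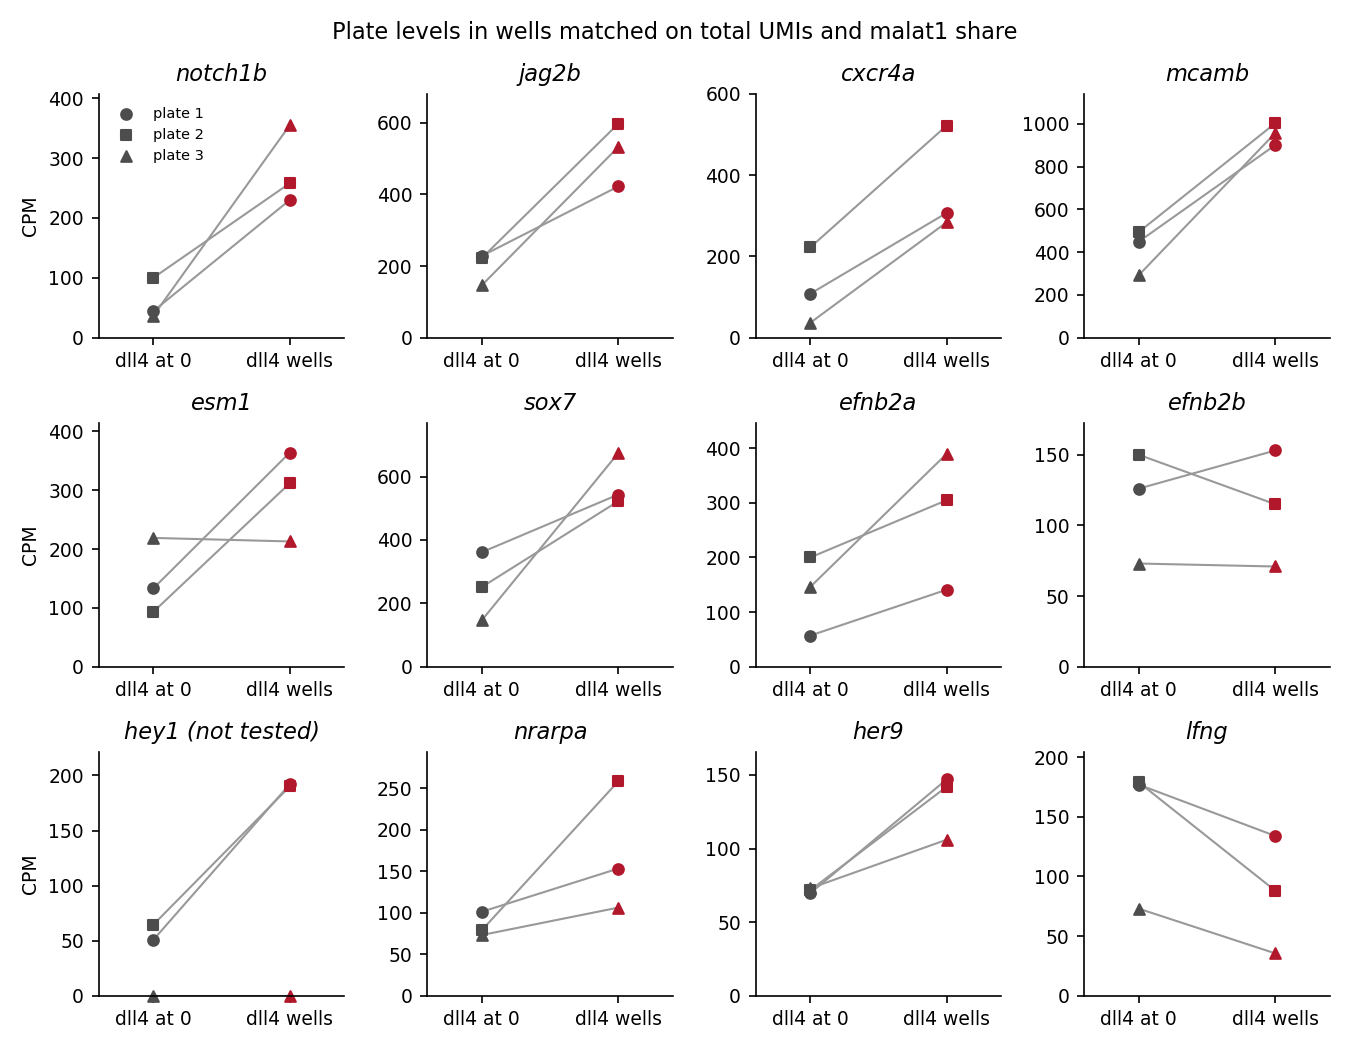
Levels of 12 genes in CPM (vertical axes, from 0), summed over matched wells of each plate, in wells with dll4 at 0 (grey) and in dll4 wells (red); lines join the classes of a plate. notch1b, jag2b, cxcr4a and mcamb are higher in dll4 wells on all 3 plates without overlap, while efnb2b shows no common direction.

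The other arterial markers differed among themselves. The SoxF factor sox7 stood at 543, 522 and 674 CPM in dll4 wells and at 361, 251 and 146 in partners. The classes did not overlap, but the log2 fold change of 0.89 ± 0.24 did not pass (edgeR adjusted p 0.0893). Ephrin-B2 has 2 zebrafish genes. efnb2a stood at 141, 305 and 390 with dll4 and at 56.9, 200 and 146 without, higher on each plate but with overlapping values (log2 difference 0.87 ± 0.33, edgeR adjusted p 0.362). efnb2b stood at 153, 115 and 70.9 with dll4 and at 126, 150 and 73.0 without, a log2 difference of -0.09 ± 0.37 (edgeR adjusted p 0.962). flt1, a decoy receptor of vascular endothelial growth factor, gave 1.23 ± 0.54 (edgeR adjusted p 0.456), and the receptor gene notch1a gave 0.44 ± 0.34 (edgeR adjusted p 0.716). The Delta-family ligand gene dlc gave 0.69 ± 0.49 (edgeR adjusted p 0.685) and the co-receptor gene nrp1a gave 0.59 ± 0.49 (edgeR adjusted p 0.742). ltbp1, which encodes a protein that binds latent TGF-beta, had a log2 difference of -0.38 ± 0.47 (edgeR adjusted p 0.854).

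Several arterial genes were too scarce to be tested in the matched wells. The transcription factor gene mecom had 11 UMIs in dll4 wells and 1 in partners. sox17 had 11 and 7, and sox18 had 13 and 5. The growth factor gene vegfc had 21 and 10, the co-receptor gene nrp1b had 23 and 14, and the gap junction gene cx39.4 (gja4) had 10 and 11. edn1, which encodes endothelin-1, ran the other way with 3 UMIs in dll4 wells and 12 in partners.

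The Notch pathway list has 34 rows in the tables, of which 30 had a UMI and 10 passed the filter. Among them 2 rose, notch1b and jag2b, and 0 fell, with a median log2 difference of 0.56 against -0.03 over all genes tested. Over all genes 14 of 1995 rose. Both notch1b and jag2b are also in the arterial list, so they are not further calls. notch1b entered the test only by its level in dll4 wells. Among the targets, the repressor gene hey1 stood at 192, 190 and 0 CPM with dll4 and at 50.6, 64.4 and 0 without. It was higher on plates 1 and 2, and with no UMI on plate 3 it did not pass the filter. The feedback gene nrarpa stood at 153, 258 and 106 with dll4 and at 101, 78.7 and 73.0 without, free of overlap but short of the threshold (log2 difference 1.04 ± 0.38, edgeR adjusted p 0.341). The repressor gene her9 gave 0.92 ± 0.42 (edgeR adjusted p 0.502) and her6 gave -0.61 ± 0.37 (edgeR adjusted p 0.638). Of the genes that modify receptors and ligands, the glycosyltransferase genes lfng and mfng gave -0.74 ± 0.37 and 0.43 ± 0.57 (edgeR adjusted p 0.52 and 0.859). The protease gene adam10a, whose product cuts Notch at the surface, gave -0.24 ± 0.27 (edgeR adjusted p 0.84). The nuclear partners of Notch were near the counting limit: rbpja had 10 UMIs in dll4 wells and 2 in partners, rbpjb had 11 and 4, maml1 had 6 and 3, and maml3 had 11 and 17.

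Of 12 tip cell genes tested, 3 rose and 0 fell: mcamb, cxcr4a and esm1. Over all genes tested 14 of 1995 rose. The list as a whole had 7 positive and 5 negative differences and a median log2 difference of 0.16, against -0.03 over all genes. The proteoglycan gene esm1, which is switched on in sprouting endothelium, stood at 364, 312 and 213 CPM with dll4 and at 133, 93.1 and 219 without. It was thus higher on plates 1 and 2 and level on plate 3 (log2 fold change 1.31 ± 0.32, edgeR adjusted p 0.0303). The growth factor receptor genes kdr and flt4 gave 0.54 ± 0.26 and -0.43 ± 0.20 (edgeR adjusted p 0.508 and 0.502).

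Genes outside these lists made up the rest of those that rose. cyp26b1, which encodes an enzyme that breaks down retinoic acid, stood at 307, 271 and 390 CPM with dll4 and at 101, 93.1 and 36.5 without (log2 fold change 1.65 ± 0.33, edgeR adjusted p 0.00763). The protocadherin gene pcdh19 stood at 281, 407 and 319 with dll4 and at 171, 57.3 and 73.0 without (1.55 ± 0.35, adjusted p 0.0172). cfd, which encodes the complement protease factor D, stood at 530, 610 and 603 with dll4 and at 323, 186 and 183 without (1.16 ± 0.25, adjusted p 0.0101). None of these 3 genes had overlapping classes.

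igf1ra, which encodes a receptor of insulin-like growth factor, had 48 UMIs in dll4 wells and 9 in partners. It rose by 2.24 ± 0.53 (edgeR adjusted p 0.0243) and was higher on all 3 plates. The gene igfbp1a, whose product binds insulin-like growth factors, stood at 1099, 1003 and 248 CPM with dll4 and at 449, 365 and 511 without, higher on plates 1 and 2 and lower on plate 3 (1.08 ± 0.24, edgeR adjusted p 0.0115). The gene of the transcription factor PRDM16 rose by 1.68 ± 0.37 (edgeR adjusted p 0.0115) and had 1 UMI in all the matched wells of plate 3; with no filter its adjusted p was 0.0267. The remaining 3, si:ch211-285f17.1, CABZ01030107.1 and si:ch211-122a17.5, carry clone names only and rose by 1.73 ± 0.31, 0.83 ± 0.16 and 0.64 ± 0.13 (edgeR adjusted p 0.00337, 0.0067 and 0.00763), each without overlap.

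In the wells matched on depth and malat1, venous and lymphatic markers had more negative than positive differences with dll4, with no member past the threshold. Of 4 venous genes tested 3 had a negative log2 difference, with a median of -0.58, and of 11 lymphatic genes 8 did, with a median of -0.37. The other 1 venous and 3 lymphatic genes were positive. Matched on total UMIs alone, 6 of 10 lymphatic genes were positive, with a median of 0.04, and all 4 venous genes were negative, with a median of -0.38. Against all wells the lymphatic and venous medians were -0.13 and -0.29. The lymphatic lean was thus not the same in each comparison. The gene flt4 is counted in both lists. edgeR called 0 of either list, where it called 21 of 1995 genes in all. At an unadjusted p under 0.05 there were 2 of 4 and 3 of 11, beside 192 of 1995 over all genes, and the 2 genes that DESeq2 called in all were among the 21 called by edgeR, none of them in these lists. nr2f2, a transcription factor of venous identity, stood at 70.3, 67.8 and 70.9 CPM with dll4 and at 139, 136 and 110 without, lower on every plate but not past the threshold (log2 difference -1.0 ± 0.43, edgeR adjusted p 0.44). The lymphatic genes cldn11b and mrc1a gave -1.17 ± 0.40 and -0.57 ± 0.25 (edgeR adjusted p 0.275 and 0.451), and prox1a gave -0.83 ± 0.52 (edgeR adjusted p 0.65). The summed level of the lymphatic list was 4908, 4590 and 6276 CPM with dll4 and 4883, 5905 and 5733 without, which overlap. That of the venous list was 997, 956 and 2376 with dll4 and 1189, 1331 and 1899 without. The venous sums overlap too, and on plate 3 the sum was higher with dll4. The summed level of the arterial list was 2792, 3438 and 3510 with dll4 and 1562, 1811 and 1059 without, and the Notch list reached 2275, 2577 and 2482 against 1505, 1696 and 1753. dll4 itself is in neither sum. Both sums hold the called genes notch1b and jag2b, and the arterial sum also holds cxcr4a, so they are not separate from those calls. notch1b and cxcr4a entered the test only by their level in dll4 wells. General endothelial lists were higher as well: the pan-endothelial list stood at 7598, 7892 and 8971 CPM with dll4 and at 7033, 6571 and 6281 without. The cell junction list stood at 3962, 4095 and 4503 against 3067, 3135 and 3506, and the list of SoxF and ETS factors at 2626, 3099 and 3085 against 2163, 2348 and 2556. None of these 3 pairs overlapped, but the lists share members and are not separate results. sox7, sox17 and sox18 are also in the arterial list. fli1a, fli1b and erg are in both the pan-endothelial list and that of SoxF and ETS factors. cdh5, pecam1, esama and cldn5a are in both the junction and the pan-endothelial list. The basement membrane list stood at 2288, 2685 and 2376 CPM with dll4 and at 1910, 1825 and 2191 without. The cell cycle arrest list stood at 3572, 3485 and 5035 against 2789, 3185 and 3031. Neither of these overlapped between the classes. The part of all these lists in the arterial levels was not tested.

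**Figure D3:**
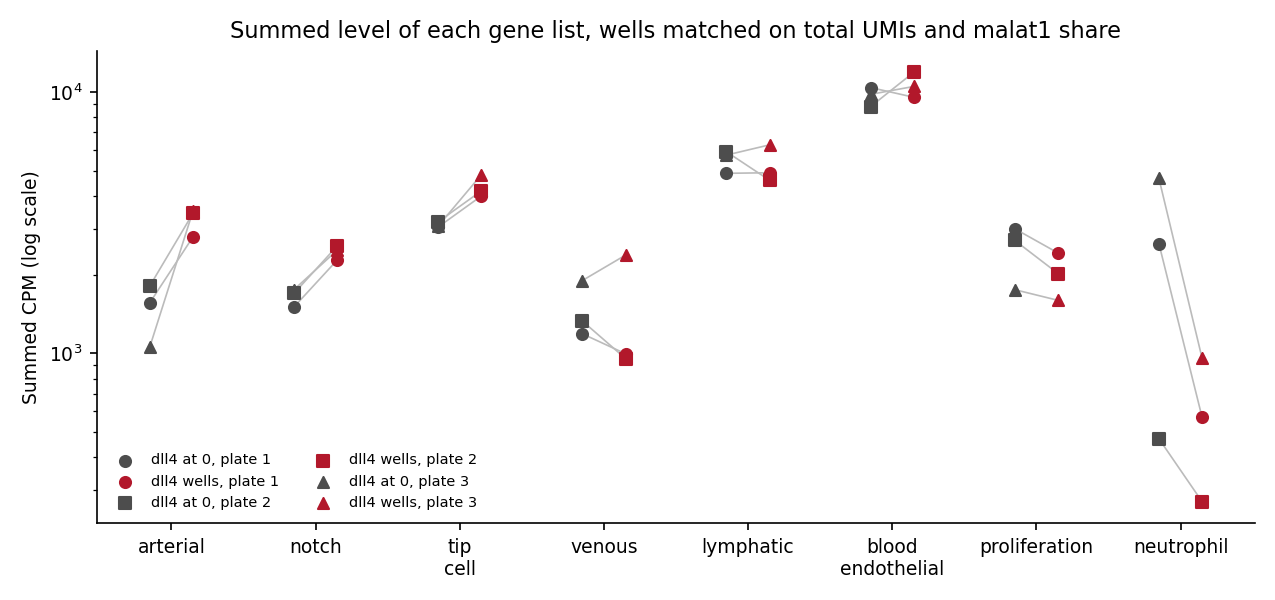
Summed level of 8 gene lists in CPM (log scale) in matched wells of each plate, in wells with dll4 at 0 (grey) and in dll4 wells (red), joined by plate. The arterial, notch and tip cell lists are higher in dll4 wells on all 3 plates without overlap. So are lists not drawn, namely the pan-endothelial, junction, SoxF and ETS, basement membrane and cell cycle arrest lists. Several of these lists share members. The sums also hold genes already called: notch1b and jag2b (arterial and notch), cxcr4a (arterial and tip cell), and mcamb and esm1 (tip cell). The share of these genes in the differences between sums was not tested. The venous, lymphatic and blood endothelial lists overlap, and the neutrophil list is lower on all 3 plates.

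Of the 7 genes that fell, 4 are known from leukocytes. The collagenase and gelatinase genes mmp13a and mmp9 fell by 3.84 ± 0.48 and 3.08 ± 0.37 on the log2 scale (edgeR adjusted p 1.1e-05 and 1.0e-05). mmp13a stood at 25.6, 0 and 106 CPM with dll4 and at 468, 93.1 and 511 without, and 66.7% of its UMIs came from a single well. This gene could enter the test only by its level in partners. The cathepsin gene ctssb.1 fell by 3.83 ± 0.67 and the leukocyte actin-binding gene coro1a by 3.42 ± 0.70 (edgeR adjusted p 0.00251 and 0.00794), on 3 UMIs each in dll4 wells; with no filter their adjusted p was 1.4e-04 and 0.00528. si:ch211-214p16.1, known by a clone name, fell by 2.82 ± 0.61 (edgeR adjusted p 0.0101). The neutrophil list, which itself holds mmp9 and mmp13a, was lower too. Its summed level was 569, 271 and 957 CPM with dll4 and 2631, 472 and 4674 without. All 9 of its rows had a UMI, and its defining genes lyz and mpx had 4 and 2 UMIs in dll4 wells against 145 and 39 in partners. Without the 11 wells of 10 or more neutrophil UMIs, and with the rest paired anew, 6 genes were higher and 2 lower. mmp9 and mmp13a then no longer passed the filter on low counts. The other 2 genes that fell were sepp1a, which encodes the selenium carrier selenoprotein P, and cotl1, which encodes an actin-binding protein. sepp1a stood at 530, 692 and 1383 CPM with dll4 and at 879, 1260 and 1716 without and fell by 0.75 ± 0.16 (edgeR adjusted p 0.0101); without the neutrophil wells its log2 fold change was -0.78 (edgeR adjusted p 0.0224). cotl1 fell by 1.33 ± 0.32 (edgeR adjusted p 0.0259), and without those wells its log2 difference of -1.1 did not pass (edgeR adjusted p 0.381). Over all alternatives the adjusted p ran from 1.6e-04 to 0.81 for sepp1a and from 0.00133 to 0.958 for cotl1.

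Set against all 485 wells without dll4, unmatched, 22 genes rose (1.05% of 2090 tested) and 10 fell (0.478%) in dll4 wells. This comparison has the same dll4 wells as the matched one, so its values are not a second sample. malat1 was 6796, 7175 and 12226 CPM with dll4 and 4676, 5629 and 10720 without, higher on each plate while the classes overlapped, and rose by 0.29 ± 0.07 (edgeR adjusted p 0.0275). notch1b rose by 1.67 ± 0.30, cxcr4a by 1.33 ± 0.25, jag2b by 1.11 ± 0.21 and mcamb by 0.76 ± 0.14 (edgeR adjusted p 0.00113, 0.00148, 0.00174 and 0.00123). Of 13 arterial genes tested 4 rose, with sox7 now past the threshold at 0.70 ± 0.18 (edgeR adjusted p 0.0364). notch1b is among these 4 and here too could pass the filter only by its level in dll4 wells, so the count adds no support. The sphingosine-1-phosphate transporter gene spns2 and the basement membrane collagen gene col4a2 rose by 0.77 ± 0.17 and 1.2 ± 0.29 (edgeR adjusted p 0.00855 and 0.0238). ackr3b, which encodes a scavenger receptor for Cxcl12, rose by 1.25 ± 0.30 (edgeR adjusted p 0.0251). In the wells matched on malat1 as well, spns2, col4a2 and ackr3b gave 0.52 ± 0.21, 0.55 ± 0.32 and 1.07 ± 0.32 and did not pass (edgeR adjusted p 0.429, 0.62 and 0.144). In the unmatched comparison 0 genes were higher and 3 lower by edgeR without plate 1, and likewise by DESeq2 with all plates (135 and 56 genes at an unadjusted p under 0.05).

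Against all wells, the mitochondrial genes mt-cyb and mt-nd2 each fell by 0.36 ± 0.09 (edgeR adjusted p 0.021 and 0.0255), and the ribosomal protein gene rps8a fell by 0.36 ± 0.09 (edgeR adjusted p 0.0243). The water channel gene aqp1a.1, a blood vessel gene, stood at 378, 352 and 530 CPM with dll4 and at 482, 650 and 904 without. It fell by 0.72 ± 0.17 (edgeR adjusted p 0.0238). Wells with 1 dll4 UMI had 308, 319 and 163 CPM of it. Those with 2 or more had 468, 422 and 1322, on plate 3 above the wells without dll4. The RNA-binding gene cirbpb fell by 0.46 ± 0.12 (edgeR adjusted p 0.0327), MEPCE, whose product caps the 7SK RNA, by 0.52 ± 0.14 (0.0373), and si:dkey-238c7.13, known by a clone name, by 1.22 ± 0.16 (2.7e-05). After matching on malat1 and depth, mt-cyb, mt-nd2, rps8a and aqp1a.1 gave -0.29, -0.33, -0.31 and -0.59 and did not pass (edgeR adjusted p 0.44, 0.341, 0.412 and 0.337). cirbpb, MEPCE and si:dkey-238c7.13 were not among the genes called after that matching either.

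With wells matched on total UMIs alone (186 pairs), 8 genes rose (0.373% of 2144 tested) and 4 fell (0.187%). cxcr4a rose by 1.66 ± 0.31 and jag2b by 1.22 ± 0.26 (edgeR adjusted p 0.00814 and 0.0197). notch1b gave 1.64 ± 0.40 and mcamb 0.76 ± 0.18, just outside the threshold (edgeR adjusted p 0.0623 and 0.0605). Without plate 1 the test called 0 genes (67 at an unadjusted p under 0.05), DESeq2 called 0 higher and 3 lower, and without plate 2 edgeR called 0 higher and 4 lower.

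Along malat1 itself many more genes were called than along dll4. This contrast used all 485 wells without dll4 and the matched one 182 pairs, so the numbers of calls are not like for like. The wells without dll4 were split at the median malat1 share of each plate, and 123 genes were higher (6.70% of 1836 tested) and 99 lower (5.39%) in the malat1-high wells. DESeq2 called 13 higher and 9 lower, and edgeR without plate 1 called 17 higher and 5 lower. These wells were not matched on depth, and many of them are the partners of the matched comparison, so the values below stand side by side without a test of their difference. notch1b stood at 58.5, 125 and 55.0 CPM in malat1-high wells and at 28.6, 80.2 and 169 in malat1-low wells, higher on plates 1 and 2 only (log2 difference 0.26 ± 0.48, edgeR adjusted p 0.786). cxcr4a gave 0.29 ± 0.35, mcamb 0.22 ± 0.22, sox7 0.23 ± 0.25 and cyp26b1 0.39 ± 0.38, none past the threshold (edgeR adjusted p 0.645, 0.583, 0.611 and 0.549).

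Other arterial genes rose with malat1. efnb2a stood at 169, 304 and 165 CPM in malat1-high wells and at 47.7, 98.7 and 96.7 in malat1-low wells, without overlap, and rose by 1.49 ± 0.36 (edgeR adjusted p 0.00138). efnb2b stood at 162, 249 and 110 against 85.9, 49.3 and 24.2 and rose by 1.5 ± 0.39 (edgeR adjusted p 0.00326), where its log2 difference along dll4 was -0.09. jag2b rose along malat1 as well, by 0.89 ± 0.30 (edgeR adjusted p 0.0321). So did cfd by 1.39 ± 0.26 and pcdh19 by 1.37 ± 0.40 (edgeR adjusted p 2.1e-05 and 0.00978). Of the 21 genes called in the matched comparison, 18 were tested along malat1 and 10 were called there. Lower in malat1-high wells were mmp9, mmp13a, ctssb.1, si:ch211-214p16.1 and cotl1 (log2 fold change -1.74, -2.45, -1.59, -2.33 and -1.16). Of other genes that fell against all wells, MEPCE and si:dkey-238c7.13 were lower there too (-0.77 and -0.66, edgeR adjusted p 6.0e-05 and 0.013). So were mt-nd2 and mt-cyb (-0.35 and -0.30, edgeR adjusted p 0.0371 and 0.0486), while rps8a and cirbpb did not pass (0.152 and 0.0702). si:ch211-214p16.1 could pass the filter only by its level in malat1-low wells. sepp1a, lower with dll4, was higher in malat1-high wells (0.48 ± 0.16, edgeR adjusted p 0.0339). Over all genes tested along malat1, 123 of 1836 rose (6.70%), and the median log2 difference was 0.00. Of 7 arterial genes tested along malat1, 3 rose, with a median log2 difference of 0.29. Of 11 lymphatic genes tested, 4 rose along malat1, among them prox1a by 1.78 ± 0.58 (edgeR adjusted p 0.026). Of 6 blood endothelial genes 4 rose. Among them, the water channel genes aqp8a.1 and aqp1a.1 rose by 1.05 ± 0.10 and 0.78 (edgeR adjusted p 5.8e-22 and 0.0048). efnb2a, efnb2b, pcdh19 and prox1a could pass the filter on low counts only by their level in malat1-high wells. Their calls, and the counts and medians that include them, thus add no support.

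**Figure D4:**
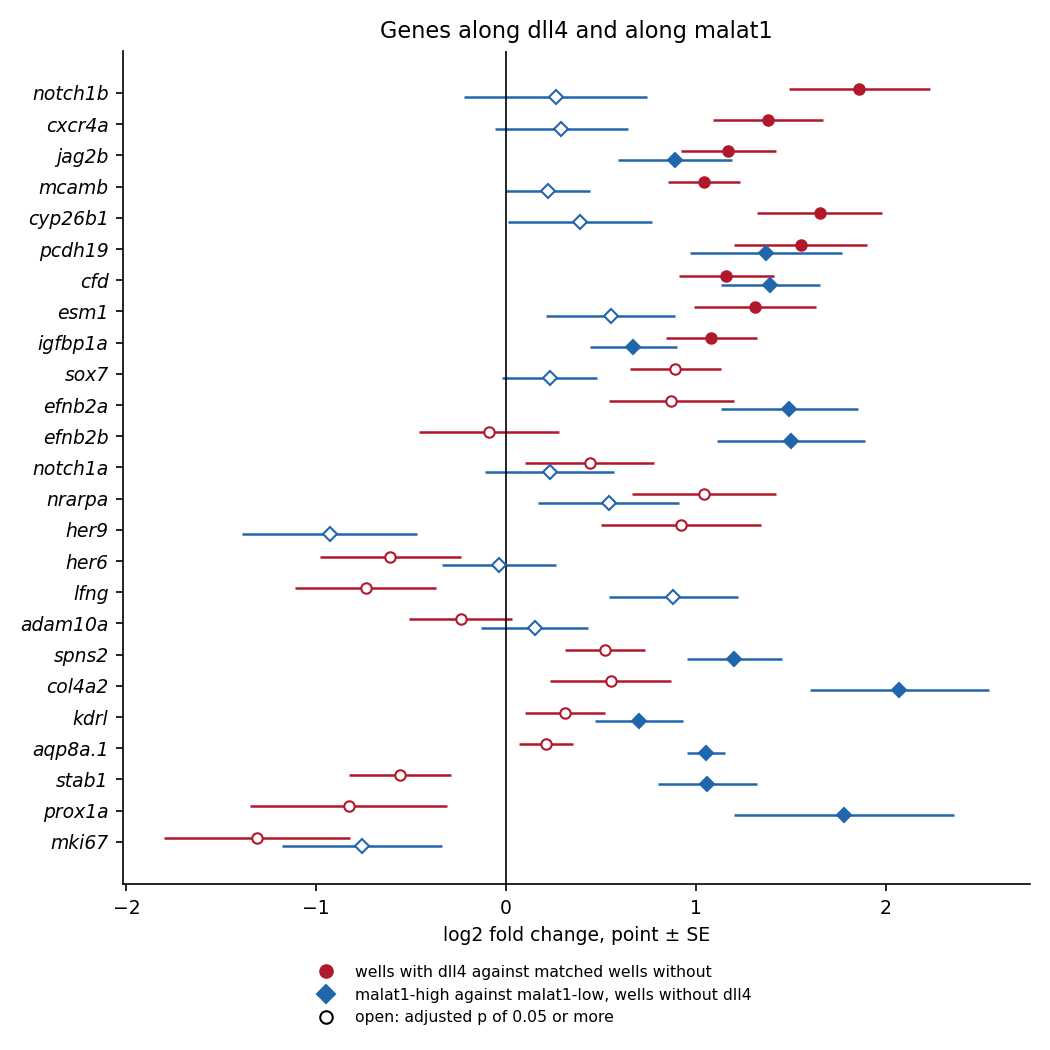
log2 fold change with its SE (horizontal axis) of 25 genes, in matched dll4 wells against wells without (red circles) and in malat1-high against malat1-low wells without dll4 (blue diamonds); filled marks passed an adjusted p of 0.05 and open marks did not. notch1b, cxcr4a, mcamb, cyp26b1 and esm1 are filled only along dll4, efnb2a and efnb2b among others only along malat1, and jag2b, pcdh19, cfd and igfbp1a along both; the difference between the contrasts was not tested.

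Whether the contrast of dll4 wells differed between malat1-high and malat1-low wells was tested with an interaction term. Of the wells in the malat1-low stratum 22.6% had dll4 (76 wells), and of those in the malat1-high stratum 33.1% (111 wells). edgeR called 0 of 1373 genes (0%), with 47 at an unadjusted p under 0.05, and DESeq2 called 0 with 24. The mean level of notch1b in malat1-high wells was 349 ± 111 CPM with dll4 and 84.9 ± 40.2 without (SD, n = 3 plates). In malat1-low wells it was 170 ± 196 with dll4 and 88.2 ± 67.7 without, and the interaction on the log2 scale was 1.53 ± 0.77 (edgeR adjusted p 0.995). sox7 stood at 570 ± 44.3 and 343 ± 95.3 in malat1-high wells, with and without dll4, and at 547 ± 102 and 295 ± 27.4 in malat1-low wells (interaction -0.18 ± 0.35, edgeR adjusted p 0.995). In the same order cyp26b1 stood at 439 ± 116 and 121 ± 29.4, and at 126 ± 95.7 and 91.2 ± 63.4 (interaction 1.27 ± 0.62, edgeR adjusted p 0.995). Its difference was thus small in malat1-low wells. The interaction was 0.85 ± 0.42 for jag2b, 0.07 ± 0.30 for mcamb and -0.74 ± 0.38 for cfd. A difference between the strata was not detectable at this depth, which does not show that it is absent.

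The levels were also set out by the number of dll4 UMIs in the well, over all wells and without a test. notch1b had a mean of 85.0 ± 38.8 CPM in wells with dll4 at 0, 136 ± 20.0 in wells with 1 UMI and 505 ± 189 in wells with 2 or more (SD, n = 3 plates). Every plate showed its highest notch1b value in the last class. From 0 to 1 UMI it went from 41.1 to 159 on plate 1. On plates 2 and 3 that step was small, from 99.2 to 127 and from 115 to 123. cyp26b1 went from 103 ± 46.5 over 194 ± 52.7 to 457 ± 146, and jag2b from 195 ± 45.4 over 337 ± 137 to 752 ± 401. For jag2b, plate 1 had 478 at 1 UMI and 289 at 2 or more, so the order was not the same on each plate. mcamb had 540 ± 61.6, 976 ± 220 and 1027 ± 342, and sox7 had 311 ± 29.8, 510 ± 126 and 615 ± 153. From 1 UMI to 2 or more, mcamb was higher on plate 2 alone (810 to 1420) and lower on plates 1 and 3 (892 to 868 and 1225 to 793), and sox7 was lower on plate 3 (654 to 441). malat1 had means of 7009 ± 3250, 7579 ± 2516 and 11168 ± 4650 CPM. It was higher at 2 or more UMIs than at 0 on each plate, but from 0 to 1 UMI it was higher on plate 1 alone, and its part in these levels was not tested. The class with 2 or more dll4 UMIs held 30, 29 and 10 wells.

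**Figure D5:**
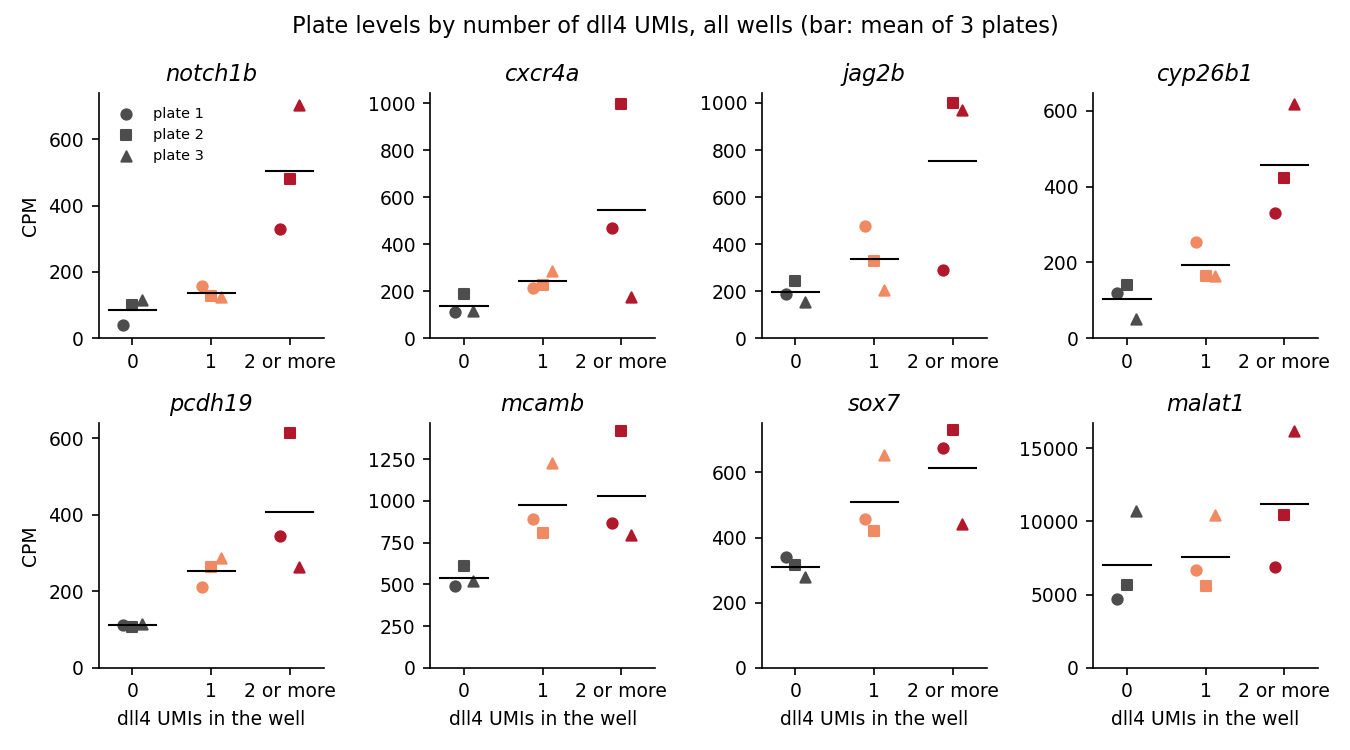
Levels of 8 genes in CPM (vertical axes, from 0) in all wells of each plate with 0, 1 or at least 2 UMIs of dll4; symbols are plates and bars are means of 3 plates. notch1b is highest in the last class on every plate (331, 480 and 705), while jag2b of plate 1 and cxcr4a of plate 3, among others, are highest at 1 UMI.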

How the data were processed

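For each of 3 plates the authors deposited raw UMI counts, genes by wells, and lists that pair wells with barcodes, amplification batches and the wells they analysed. Per the labels' protocols, libraries were made by MARS-seq, a plate method that tags the 3' end of poly(A) transcripts. The submitters' processing notes name Bowtie2 and the build GRCz10; of annotation, filters and UMI collapsing these sources say nothing.

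Deposited counts of the 25839 rows were summed per plate and class of wells. The sums went into edgeR 4.0.16 under R 4.3.3, using TMM factors, filterByExpr, the quasi-likelihood F-test and plate as a block, since both classes share a plate. The standard error is the log2 fold change divided by the root of F. Spike-in rows were at 0 UMIs. Wells were paired by optimal assignment (scipy 1.17.1, Python 3.11.15) on log2 total UMIs without dll4, with or without log2 malat1 share. Pairs over 0.5 plate SD apart were dropped. Doublets were not called. The matched sums held 28642 to 157710 UMIs in dll4 wells and 27761 to 159137 in partners. The fits were also run on simulated sums without plate effects, in which only well-counted genes were changed. That run says nothing of plate effects or scarce genes. DESeq2 1.42.0 served as another test. A split by malat1 used the median share of each plate.

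The members, gene lists and tests were chosen with earlier results of these data known, and the wells by their dll4 UMIs. Named genes are, for the comparison matched on depth and malat1 and for that with all wells, up to 15 higher and 10 lower genes of smallest p among those called with the same direction on all plates. Added to these are malat1, genes of the arterial and notch lists with 10 or more UMIs, and up to 4 genes of smallest p of other lists. igfbp1a, prox1a, mpx and lyz were named beyond this rule, chosen after their values were seen. Symbols without a row were looked up as RefSeq synonyms, such as cx39.4 for gja4.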

Additional observations from a re-analysis of the deposited data

Results flagged for a closer look

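dll4 UMIs were also present in wells that entered no comparison. Wells off the authors' list held 30 UMIs of dll4, in 15 of 116 wells (12.9%, exact 95% interval 7.42 to 20.4%), at a median depth of 296.5 UMIs. Listed wells under 500 UMIs held 31, in 29 of 364 wells (7.97%, 5.40 to 11.2%), at a median depth of 223.0 UMIs. Both counts were picked out because these wells enter no comparison. No wells are marked as empty, so no background level can be set beside them. With 3 plates in the group, single plates were not tested as outliers.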

How the results depend on the processing

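The number of genes called depended on most choices, though not on DESeq2's size factors. Against all wells 32 genes were called in either direction, and the count was 100 with no filter on low counts, 3 with DESeq2, 7 without the plate block, 9 in wells thinned to 500 UMIs, 16 without neutrophil wells, and 3 to 75 when a plate was left out. It was 3 without dll4 wells at a shared dll4 coordinate, 1 without wells with other cell type markers (17 dll4 wells left) and 8 with krt8 not counted among those. Matched on total UMIs, 12 genes were called; in the same order the counts were 4, 3, 3, 4, 16, 0 to 48, 4, 0 and 1, with 21 for at least 2 dll4 UMIs. Matched on malat1 as well, 21 were called, against 2 with DESeq2, 6 without the plate block, 4 for at least 2 dll4 UMIs, 3 when thinned, 8 without neutrophil wells, 0 to 38 without a plate, 5, 1 and 1 for the coordinate and marker alternatives, 13 with a malat1 term in place of matching, and 2 with ribosomal share matched too. Along malat1 222 were called, against 145 with no filter, 22 with DESeq2, 19 without the plate block, 45 in wells of at least 1000 UMIs and 22 to 113 without a plate. The cause of these shifts was not tested. The alternatives on neutrophil wells and on krt8 were chosen after seeing the data. The interaction called 0 genes under all its alternatives.

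The percent of wells with dll4, 27.3, was 33.6 in wells of at least 1000 UMIs, 13.8 when thinned and 10 for at least 2 UMIs of dll4. Of 688 values of named genes under alternatives, 429 kept direction and side of the threshold 253 kept direction but lost the call, and 1 gained it. The sign changed in 5, none of them a called gene: efnb2b was 0.03 in wells of at least 1000 UMIs and 0.06 with blood endothelial share matched, and without plate 2 the log2 differences of efnb2b, her6 and adam10a turned positive. Leaving out each plate in turn gave -0.08 to 0.19 for efnb2b, -0.83 to 0.02 for her6 and -0.42 to 0.01 for adam10a. Depth limits plate 3 most, where notch1b and cxcr4a had 1 UMI each in the matched partners.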

Other observations

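Other gene groups in the matched wells gave no calls by edgeR beyond those described. Of 11 proliferation genes tested, 1 had a positive and 10 a negative log2 difference, with a median of -0.32 against -0.03 over all genes. The histone variant gene h2afvb stood at 307, 217 and 284 CPM with dll4 and at 519, 401 and 438 without (log2 difference -0.85 ± 0.24, edgeR adjusted p 0.0964). mki67, a marker of cycling cells, gave -1.31 (edgeR adjusted p 0.379). Of 10 cell junction genes 8 were positive, with a median of 0.33, and of 18 pan-endothelial genes 11 were positive, with a median of 0.16; the ETS factor gene erg gave 0.74 ± 0.27 (edgeR adjusted p 0.353). The flow-responsive factor genes klf2a and klf2b gave 0.34 and -0.51 (edgeR adjusted p 0.691 and 0.502).

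Embryonic globin transcripts were uneven between plates. The summed level of the erythroid list was 697, 339 and 0 CPM with dll4 and 44.3, 329 and 73.0 without, and neither of the 2 genes tested passed (hbbe2 and hbz, edgeR adjusted p 0.14 and 0.429). In the keratinocyte list, krt8 gave -0.01 and krt4 gave 0.43 (edgeR adjusted p 0.981 and 0.52).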
